A study of Homo sapiens with 2 samples.

Results

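The NF-kB transcription factors and the proteins that hold them in check were read in MDA-MB 231 cells stably transfected with S100A7. The line comes from a human breast cancer, lacks the estrogen receptor and is known for its invasiveness. The group consists of 10 genes chosen by name: the 5 subunit genes NFKB1, NFKB2, RELA, RELB and REL, and the inhibitor or cofactor genes NFKBIA, NFKBIB, NFKBIE, TNFAIP3 and BCL3. All probe sets annotated to them were taken, 22 of the 54675 on the array. Total RNA was hybridised to Affymetrix expression arrays, 1 array for cells carrying S100A7 in the plasmid pIRES2-EGFP and 1 for cells carrying pIRES2-EGFP alone. Both lines therefore share the plasmid with its green fluorescent protein gene and the selection of stable cells. Whether each line was a single clone or a mixed population is not stated in the sources used here. S100A7, or psoriasin, is a small calcium-binding protein known from inflamed skin, and the title of the series asks about inflammatory pathways.

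NF-kB proteins bind DNA as dimers of the subunits, which share a Rel homology domain. In resting cells the IkB proteins (products of NFKBIA, NFKBIB and NFKBIE) keep most dimers in the cytoplasm, until the IKK kinases mark the IkB proteins for destruction and the dimers enter the nucleus. Several genes of the system, NFKBIA, TNFAIP3, NFKB2 and RELB among them, are themselves textbook NF-kB targets, and MDA-MB 231 is known for constitutive NF-kB activity. These are statements of background. The arrays measure RNA, not the location or DNA binding of the proteins.

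Each group had 1 array and no replicate, so no test was possible, no p-value is given, and the spread between cultures and between separately selected lines was not measured. Differences are given as folds or as log2 ratios, positive where the S100A7 array was higher. The only yardstick was how far probe sets of 1 gene disagreed, a pooled standard deviation of 0.36 in log2 ratio over 6465 genes. A probe set was called measured when it reached the floor, the 50th percentile of an array (71.0 for the vector array, 69.0 for the S100A7 array), on at least 1 array. The gene value is that of its brightest measured probe set. The transfected gene itself read 11.99 on the vector array, below the floor, and 13232 on the S100A7 array, at least 186-fold higher.

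Of the 22 probe sets, 20 listed a single gene and 17 of those were measured, each above the floor on both arrays, so no value of a member is a lower bound. They read 9 of the 10 genes. The remaining 2 probe sets list BCL3 together with the microRNA gene MIR8085, so BCL3 is described by its probe sets and stays out of the counts.

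The promoter windows of NFKBIA, TNFAIP3 and NFKB2, members whose RNA was higher on the S100A7 array, are shown beside that of NFKB1, whose RNA was not. They are printed because NFKBIA, TNFAIP3 and NFKB2 are textbook NF-kB targets. Whether sites in these windows have a part in the values of the members was not tested. Each window is RefSeq sequence on GRCh38.p14, 250 bases before to 50 bases after a start site, written 5′ to 3′ on the strand of the gene. Capitals mark matches to the kappa B consensus (10 letters: G bases, a purine, any bases, pyrimidines, C bases), searched on both strands, and matches that overlap run together. NFKB2 has 3 windows in the table, of which the 2 with a match are shown, and NFKB1 has 2, of which the one without a match (chr4:102501684-102501983) is not shown.
NFKBIA, chr14:35404700-35404999, minus strand: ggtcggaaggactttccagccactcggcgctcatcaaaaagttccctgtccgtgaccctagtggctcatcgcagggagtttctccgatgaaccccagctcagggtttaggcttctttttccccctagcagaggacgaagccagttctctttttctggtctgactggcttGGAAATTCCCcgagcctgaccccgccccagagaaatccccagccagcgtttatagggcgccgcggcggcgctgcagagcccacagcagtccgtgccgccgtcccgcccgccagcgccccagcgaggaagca
TNFAIP3, chr6:137867009-137867308, plus strand: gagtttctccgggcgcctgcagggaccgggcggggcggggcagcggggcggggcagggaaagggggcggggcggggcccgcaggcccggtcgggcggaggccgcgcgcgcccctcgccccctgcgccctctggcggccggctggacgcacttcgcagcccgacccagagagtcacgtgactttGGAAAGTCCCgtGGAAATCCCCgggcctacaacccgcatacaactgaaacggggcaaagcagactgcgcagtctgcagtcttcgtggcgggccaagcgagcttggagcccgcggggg
NFKB2, chr10:102394328-102394627, plus strand: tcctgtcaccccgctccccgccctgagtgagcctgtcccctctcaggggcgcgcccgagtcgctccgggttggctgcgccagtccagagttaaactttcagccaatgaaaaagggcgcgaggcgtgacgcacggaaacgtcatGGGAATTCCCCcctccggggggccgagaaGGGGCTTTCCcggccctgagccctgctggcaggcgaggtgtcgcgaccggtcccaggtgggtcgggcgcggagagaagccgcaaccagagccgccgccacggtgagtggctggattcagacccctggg
NFKB2, chr10:102395455-102395754, plus strand: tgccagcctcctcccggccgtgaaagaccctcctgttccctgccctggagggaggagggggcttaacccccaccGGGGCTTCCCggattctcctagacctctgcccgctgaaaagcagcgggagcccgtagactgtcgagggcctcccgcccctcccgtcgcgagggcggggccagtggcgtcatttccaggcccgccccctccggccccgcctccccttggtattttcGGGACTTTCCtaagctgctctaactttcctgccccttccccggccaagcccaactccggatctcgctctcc
NFKB1, chr4:102501109-102501408, plus strand: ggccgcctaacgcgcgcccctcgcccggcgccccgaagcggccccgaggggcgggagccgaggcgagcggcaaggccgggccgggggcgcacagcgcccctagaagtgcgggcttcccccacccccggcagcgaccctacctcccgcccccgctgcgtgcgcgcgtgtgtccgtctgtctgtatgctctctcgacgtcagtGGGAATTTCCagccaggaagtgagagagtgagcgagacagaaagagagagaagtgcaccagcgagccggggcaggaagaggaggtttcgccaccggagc

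In these windows the match of NFKBIA began 81 bases before the start site and those of TNFAIP3 began 67 and 55 bases before it. Read on the strand that fits the consensus, TNFAIP3 carries GGGACTTTCC and GGGGATTTCC. NFKB2 carries GGGGCTTTCC and the palindrome GGGAATTCCC in its upstream window, and GGGACTTTCC, the same letters as in TNFAIP3, in the downstream one. NFKBIA and NFKB1 share the letters GGGAATTTCC, and these also stand in the windows of REL (chr2:60881528-60881537) and NFKBIB (chr19:38899941-38899950). The table held windows for 8 of the 10 members, all but RELB and NFKBIE, and 7 of the 8 had a match in at least 1 window, RELA being the member without these letters. A match was present for 13.3% of all 27305 genes with a window and in 11.3% of all 35116 windows of this length. A match describes letters, not occupancy: NFKB1, REL and NFKBIB hold the letters found in NFKBIA and were not higher on the S100A7 array, while RELA, without a match, was.

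Among the subunits, NFKB2 and RELA were higher in S100A7 cells while NFKB1, RELB and REL had log2 ratios between -0.29 and 0.01. NFKB2 encodes the precursor that is processed to the short subunit of the non-canonical pathway. Its brightest probe set read 760.7 with the empty plasmid and 1374.6 with S100A7, 1.81-fold higher (log2 ratio 0.85). A second NFKB2 probe set read 319.6 and 437.8 (log2 ratio 0.45). Both were higher on the S100A7 array, and they differed from each other by 0.40. The last NFKB2 probe set was below the floor on both arrays, at 28.5 and 58.3.

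RELA, the transactivating subunit of the canonical dimer, read 3230.8 with the empty plasmid and 4887.5 with S100A7, 1.51-fold higher (log2 ratio 0.60). Its other probe set went the same way by less, from 1764.3 to 2181.5 (log2 ratio 0.31). The value of RELA thus lay just above the 1.5-fold line on 1 probe set and below it on the other.

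NFKB1, the gene for the partner of RELA in that dimer, did not share the direction. Its 1 probe set read 1927.5 with the empty plasmid and 1574.4 with S100A7, 1.22-fold lower (log2 ratio -0.29). RELB, the partner of the NFKB2 product, read 568.2 and 571.5 (log2 ratio 0.01). NFKB2 and RELB, whose products pair in the non-canonical pathway, therefore had unequal log2 ratios. REL, the subunit gene best known from lymphocytes, had 4 measured probe sets, with log2 ratios from -0.05 to 0.06. These were the closest readings of any member with several probe sets: its brightest read 598.1 and 576.0, and the others 325.6 and 322.0, 314.9 and 328.6, and 125.2 and 120.7. The remaining REL probe set was below the floor on both arrays, at 52.1 and 31.8.

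**Figure D1:**
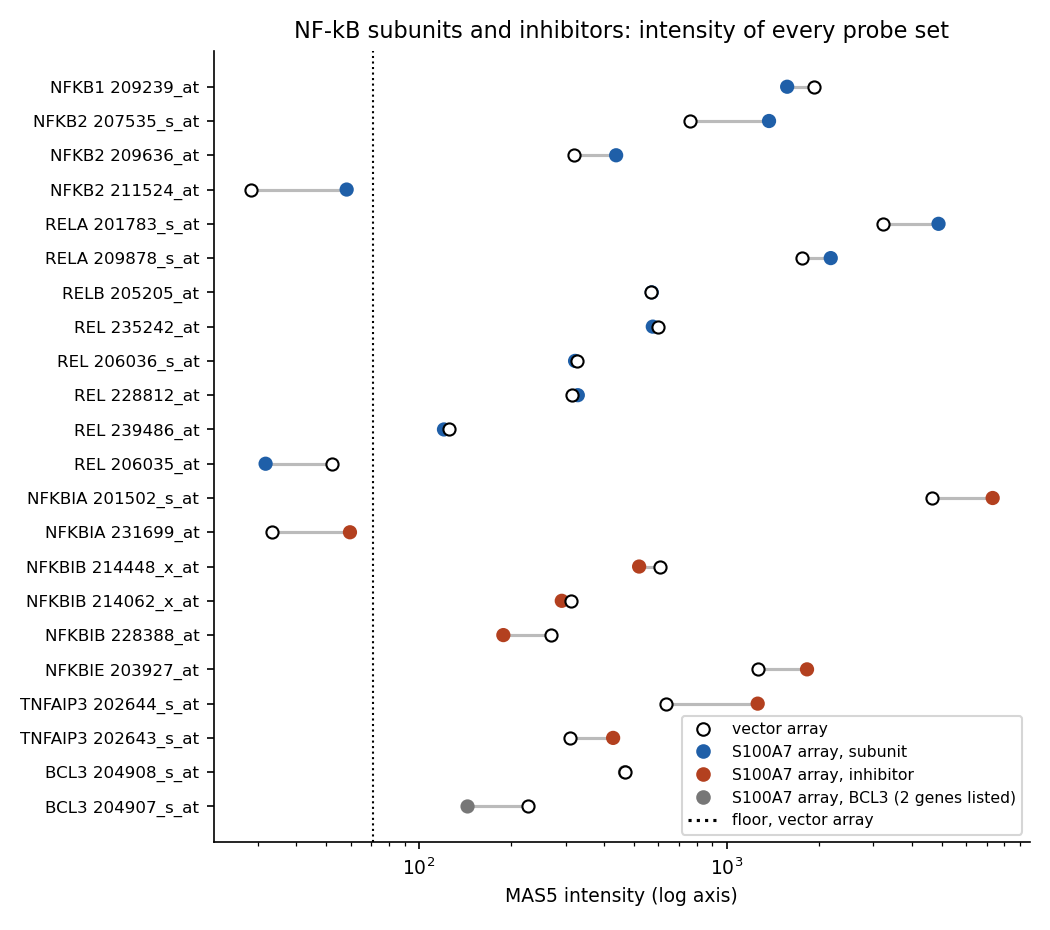
MAS5 intensity (log axis) of all 22 probe sets, with the vector array as open circles and the S100A7 array as filled circles (blue subunits, red inhibitors, grey BCL3) and the vector array's floor of 71.0 as a dotted line. The gap between circles is widest among measured probe sets for TNFAIP3 and NFKB2, the circles of RELB and REL nearly coincide, and 3 probe sets lie below the floor on both arrays.

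Of the 4 inhibitors read by probe sets of their own, 3 were higher in S100A7 cells, namely TNFAIP3, NFKBIA and NFKBIE. TNFAIP3, which encodes a ubiquitin-editing enzyme that shuts off signalling upstream of IKK, had the highest log2 ratio of all members. Its brightest probe set read 637.0 with the empty plasmid and 1262.8 with S100A7, 1.98-fold higher (log2 ratio 0.99). The other read 311.1 and 428.0 (log2 ratio 0.46), so both were higher, and the gap of 0.53 between them was the widest of the 9 members.

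NFKBIA, which encodes IkB-alpha, the fast-turning inhibitor that NF-kB itself induces, read 4652.0 with the empty plasmid and 7328.8 with S100A7, 1.58-fold higher (log2 ratio 0.66). Its other probe set was below the floor on both arrays, at 33.4 and 59.7, and gives no second reading. NFKBIE, the gene for IkB-epsilon, read 1265.0 and 1826.7, 1.44-fold higher (log2 ratio 0.53), on its 1 probe set.

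NFKBIB, the gene for IkB-beta, went the other way from the other IkB genes. Its brightest probe set read 610.1 with the empty plasmid and 519.9 with S100A7 (log2 ratio -0.23). The others read 312.5 and 291.5 (-0.10) and 269.2 and 188.2 (-0.52). All 3 were lower on the S100A7 array and none reached 1.5-fold. BCL3, a nuclear IkB relative that binds dimers of the NFKB1 and NFKB2 products, was read by 2 probe sets that disagreed: 1 gave 469.3 and 467.9 (log2 ratio 0.00), the other 226.9 and 144.0 (log2 ratio -0.66, 1.58-fold lower). Because both also list MIR8085, these readings cannot be assigned to BCL3 alone.

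**Figure D2:**
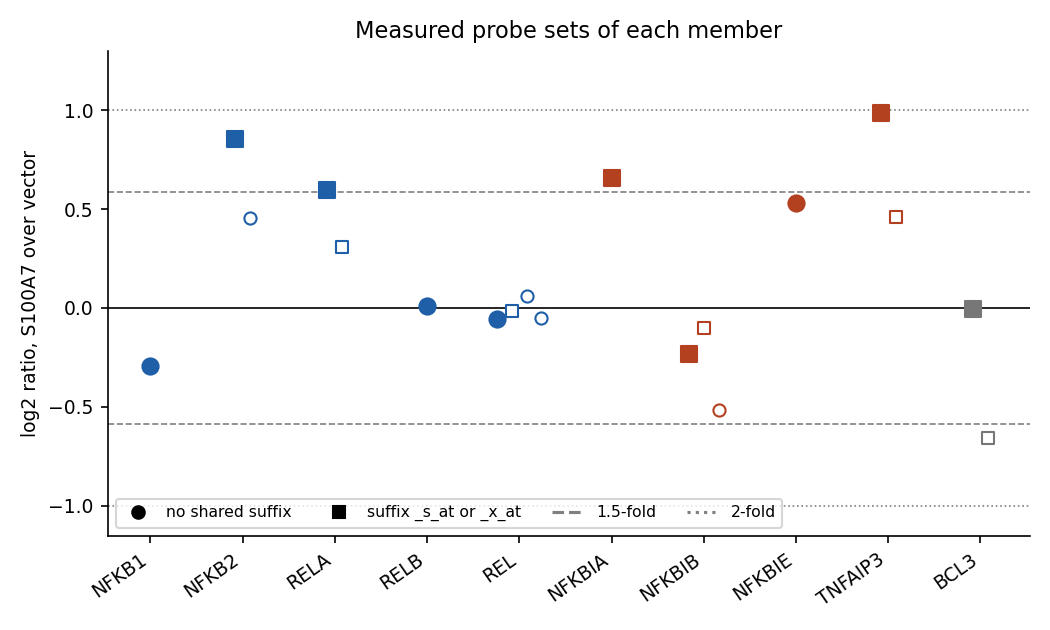
Log2 ratio (S100A7 over vector) for each measured probe set of the members; filled symbols are the brightest probe set of a gene, open symbols the others, squares carry a shared-transcript suffix, and dashed and dotted lines mark 1.5-fold and 2-fold. The symbols of TNFAIP3, NFKB2 and RELA are all above 0, those of NFKBIB all below it, and those of REL lie between -0.05 and 0.06.

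Counted together, 4 of 9 members (TNFAIP3, NFKB2, NFKBIA and RELA) were at least 1.5-fold higher, where 8.12% of all 12688 measured genes were. The members and the threshold were chosen with earlier results of these data known, so this count is no independent evidence. At least 1.5-fold lower were 0 of 9, where 10.0% of measured genes were. With only 9 members, a count of 0 lies close to that share. No member reached 2-fold in either direction, a size passed upward by 1.80% and downward by 2.25% of measured genes. Among the 11242 genes that reached the floor on each array, as all 9 members did, 7.76% passed 1.5-fold upward and 9.19% downward. The log2 ratio was above 0 for 6 of 9 members, against 45.8% of measured genes. The median log2 ratio of the members was 0.53, beside -0.04 for all measured genes. The medians were 0.01 for the 5 subunits and 0.59 for the 4 inhibitors, and the members spanned -0.29 to 0.99.

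Ordered by log2 ratio, the members ran TNFAIP3, NFKB2, NFKBIA, RELA, NFKBIE, RELB, REL, NFKBIB and NFKB1. The largest step in this order was 0.52, between NFKBIE and RELB, and each other step was at most 0.20. The yardstick of 0.36 holds for single probe sets and is too narrow for such differences. With chromosomal neighbours subtracted, NFKBIE stood at 0.33 and RELB at 0.24. With 1 array per group, neither adjacent ranks nor a division into an upper and a lower set are resolved. TNFAIP3 stood among the highest 1.92% of measured genes, NFKB2 among the highest 3.18%, NFKBIA among the highest 6.44% and RELA among the highest 7.83%. NFKB1 was not far from the middle on the low side, with 26.5% of genes at or below its value.

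**Figure D3:**
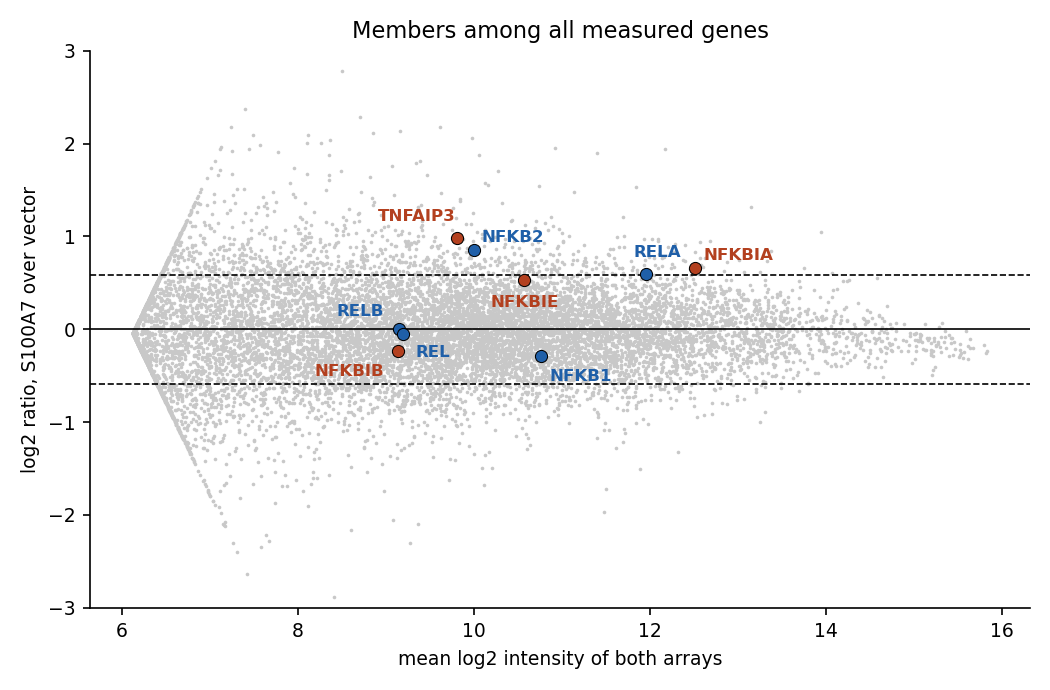
Log2 ratio against mean log2 intensity for all 12688 measured genes (grey; 12 lie beyond the vertical range of 3 in either direction) with the 9 members in colour (blue subunits, red inhibitors) and 1.5-fold as dashed lines. TNFAIP3, NFKB2, NFKBIA and RELA lie above the upper line and the other members between the lines.

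Probe sets with and without a shared-transcript suffix (_s_at or _x_at, which can match several transcripts or genes) gave different medians for the members. All 4 members at least 1.5-fold higher owed that value to a probe set with such a suffix. Of the 17 measured probe sets of the members, 9 carried a suffix, with a median log2 ratio of 0.46, and 4 of those were at least 1.5-fold higher; of the other 8, with a median of -0.02, 0 were. Over all measured probe sets, 9.92% were at least 1.5-fold higher, 940 of 10041 with a suffix and 1485 of 14397 without. With only 8 probe sets, a count of 0 lies close to that share. Only NFKB2, REL and NFKBIB had measured probe sets of both kinds, so the 2 groups differ in their genes as well as in the suffix. For NFKB2 the probe set without suffix was also higher (0.45). RELA, NFKBIA and TNFAIP3 had no measured probe set without a suffix, so they drop out when suffixes are left out. The 6 members that remained then had a median log2 ratio of -0.02.

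Position along the chromosomes moved with the values as well. TNFAIP3 and NFKBIE are genes of chromosome 6, where the median over 664 measured genes was 0.24 on the log2 scale, and the 40 measured genes nearest to TNFAIP3 had a median of 0.41. The neighbours of NFKBIE had a median of 0.20, those of RELA 0.17, those of NFKB2 0.14 and those of NFKBIA 0.08. RELB and NFKBIB lie on chromosome 19, with a median of -0.19 over 909 genes, and the neighbours of NFKB1 on chromosome 4 had a median of -0.17. After subtracting the neighbours' median the log2 ratio was 0.71 for NFKB2, 0.58 for TNFAIP3, 0.57 for NFKBIA, 0.43 for RELA and 0.33 for NFKBIE, so the same 5 genes stood highest, and 1 of 9 members, NFKB2, was at least 1.5-fold higher, where 7.54% of all genes were in that setting. NFKB1 was then at -0.12, NFKBIB at 0.02, REL at 0.03 and RELB at 0.24. The part of chromosomal position in these values was not tested.

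**Figure D4:**
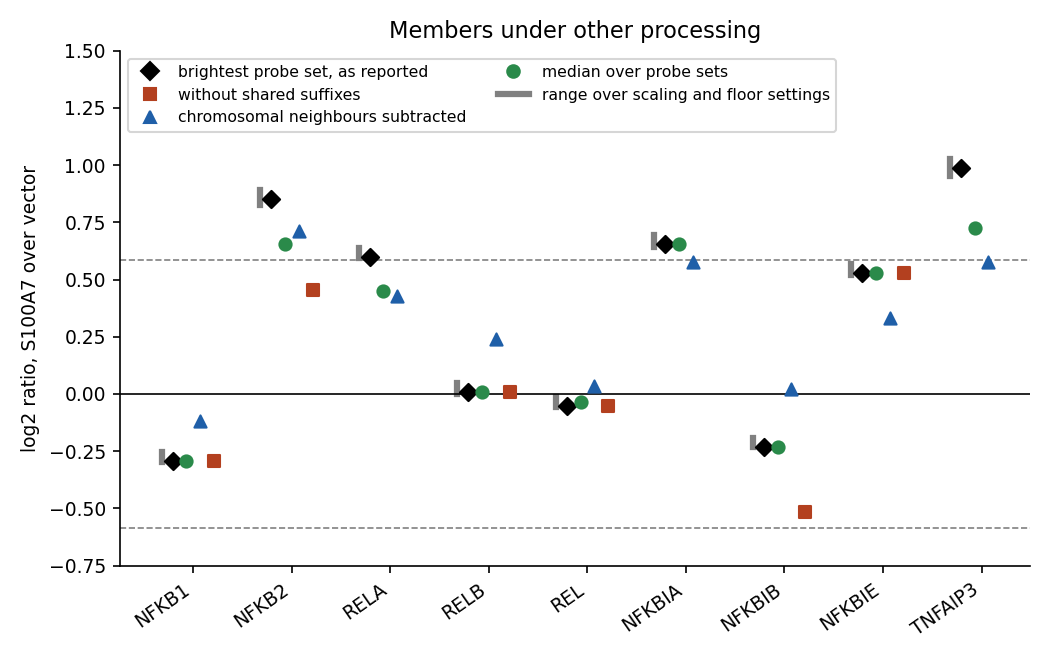
Log2 ratio of each of the 9 members as reported (black diamonds), with the median over probe sets (green), without shared suffixes (red), with chromosomal neighbours subtracted (blue) and over the scaling and floor settings (grey bars); dashed lines mark 1.5-fold. TNFAIP3, NFKB2, NFKBIA, RELA and NFKBIE are above 0 in every setting that reads them, and red symbols are missing for RELA, NFKBIA and TNFAIP3.

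Genes upstream of the members lay on both sides. Among 20 measured genes of 22 listed for the IKK complex, its upstream kinases and IkB degradation, 3 passed 1.5-fold upward and 2 downward. The median log2 ratio was 0.05. Of all measured genes, 8.12% passed upward and 10.0% downward. Without suffixed probe sets, with neighbours subtracted or with a floor at the 70th percentile, 1 listed gene passed downward. Of all genes, 10.3%, 6.94% and 6.90% passed downward in these settings. MAP3K14, the NF-kB-inducing kinase that triggers processing of the NFKB2 precursor, read 475.3 with the empty plasmid and 1319 with S100A7, 2.78-fold higher, on 1 probe set. IKBKB, the kinase subunit that phosphorylates IkB-alpha, read 625.7 and 1031, 1.65-fold higher, with log2 ratios from 0.44 to 0.80 over 3 probe sets. IKBKE, an IKK-related kinase, was 1.72-fold higher on its brightest probe set, with the other at -0.15. CHUK, the kinase subunit used by the non-canonical pathway, had a log2 ratio of 0.11, and IKBKG, the regulatory subunit, -0.19; both were chosen after their values were seen. RNF31, the catalytic part of the linear ubiquitin ligase, was at least 2.50-fold lower (172.6 and 62.5, the second below the floor), and CUL1, the scaffold of the ligase that marks IkB proteins, 1.55-fold lower.

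Receptors and adaptors also went both ways. Of 27 measured of 32 listed, 4 passed 1.5-fold upward and 4 downward, with a median log2 ratio of -0.02. Of all measured genes, 8.12% passed upward and 10.0% downward. The numbers of listed genes were 3 and 2 without suffixed probe sets, 4 and 2 with neighbours subtracted, and 2 and 2 with a floor at the 70th percentile. The shares of all genes in these settings were 9.33% and 10.3%, 7.54% and 6.94%, and 5.99% and 6.90%. TNFRSF1B read 189.8 with the empty plasmid and 537.9 with S100A7 (2.83-fold higher), and TNFRSF1A read 1455 and 2708 (1.86-fold higher); they encode the receptors for tumour necrosis factor, and each had 1 measured probe set. TLR3, the endosomal sensor of double-stranded RNA, was 2.49-fold higher, with both probe sets at 1.09 or above on the log2 scale. IL1RAP, the accessory chain of the interleukin-1 receptor, was 2.51-fold lower (348.0 and 138.5, its other probe set at -0.28). IRAK1, a kinase recruited to that receptor, was 1.60-fold lower. IL1R1, another chain of that receptor, was 1.56-fold lower on its 1 probe set (230.4 and 147.3). IRAK2, a kinase of the same receptor, was 1.80-fold higher (230.0 and 412.9, its other probe set at 0.11). Both IL1R1 and IRAK2 were named after their values were seen. RIPK2, which signals from the NOD receptors, was 2.05-fold lower.

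The inhibitors outside the main group did not share the direction of TNFAIP3 and NFKBIA as a list. Of 16 measured of 18 listed, 1 passed 1.5-fold upward and 2 downward, and the median log2 ratio was -0.14. Of all measured genes, 8.12% passed upward and 10.0% downward. RNF11, a partner of the TNFAIP3 protein, was 1.53-fold higher. PDLIM2, which promotes degradation of nuclear RELA, read 2554 and 1327 (1.92-fold lower), and NKRF, a repressor that binds promoters of NF-kB targets, was 1.54-fold lower. NFKBIZ, an inducible nuclear IkB relative, lay just inside the 1.5-fold line on its brightest probe set (2084 and 3103, log2 ratio 0.57) and beyond it on its other (0.80). The deubiquitinase gene CYLD had a log2 ratio of -0.55 with its 6 probe sets all below 0. NFKBIZ and CYLD were chosen after their values were seen.

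Target genes had the highest median of the 5 lists, but not without suffixed probe sets. Of 32 measured of 44 listed, 12 passed 1.5-fold upward, 8 of these also 2-fold, and 3 passed 1.5-fold downward. The median log2 ratio was 0.42. By comparison, 8.12% of all measured genes passed 1.5-fold upward, 1.80% passed 2-fold upward and 10.0% passed 1.5-fold downward. C3, the central complement component, read 368.1 with the empty plasmid and 1672 with S100A7 (4.54-fold higher). The cytokine gene IL1A was 4.32-fold higher on 1 of its 2 probe sets, with the other at -0.02, and the chemokine gene CXCL1 was 3.86-fold higher. In the other direction were EFNA1, an ephrin (at least 1.98-fold lower), PLAUR, the urokinase receptor (8260 and 4300, 1.92-fold lower), and the survival gene BCL2L1 (1.58-fold lower). Without suffixed probe sets, 24 of the listed targets were read, with a median of 0.07. In that setting 7 targets passed 1.5-fold upward and 4 downward, where 9.33% and 10.3% of all genes did. The list was drawn up with earlier results of these data known, so its direction is no independent evidence.

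Nuclear coactivators and partners had a median log2 ratio of -0.09 over 13 measured of 18 listed, with 2 at least 1.5-fold higher and 0 lower. Over all measured genes, 8.12% were higher and 10.0% lower by that size. With only 13 genes, these counts lie close to those shares. The median was 0.44 over the 7 genes read without suffixed probe sets. With neighbours subtracted 0 listed genes were at least 1.5-fold higher, where 7.54% of all genes were. SIRT1, a deacetylase that acts on RELA, was 1.71-fold higher. HDAC2, a histone deacetylase, was 1.72-fold higher on its brightest probe set, with the other at -0.42.

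**Figure D5:**
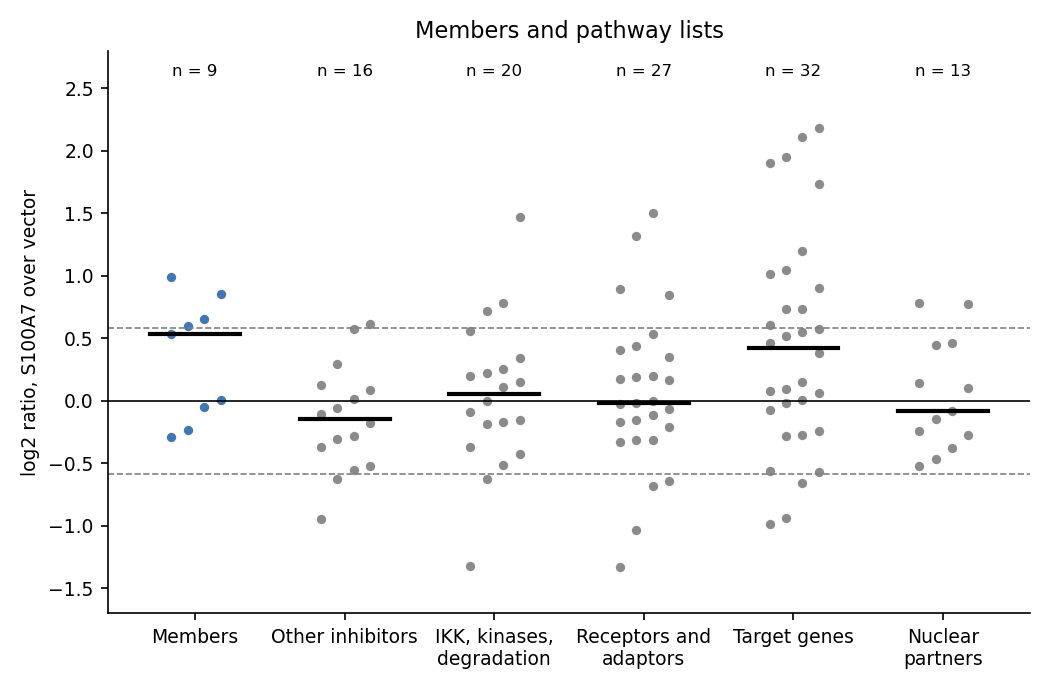
Log2 ratio of each measured gene, S100A7 array over vector array, for the 9 members (blue) and 5 pathway lists (grey), with black bars for medians and dashed lines for 1.5-fold. The medians of the members (0.53) and the target genes (0.42) lie above those of the other lists, which run from -0.14 to 0.05; without suffixed probe sets, not drawn here, they were -0.02 for the members and 0.07 for the targets.

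Both arrays carried the markers of the line, and most markers of other cell types were below the floor. The trimmed mean intensity was 500.1 on each array, and the 3' over 5' ratios of the ACTB and GAPDH controls were 1.09 and 0.718 on the vector array and 1.07 and 0.801 on the S100A7 array. Of 12 markers listed for the line, 9 were measured: VIM, CD44, AXL, ZEB1, FN1, EPCAM, ERBB2, KRT18 and KRT8. CDH1, ESR1 and PGR were below the floor on both arrays. FN1 read 1312 with the empty plasmid and 863.7 with S100A7 (log2 ratio -0.60). The other measured markers of the line had log2 ratios from -0.26 (KRT18) to 0.36 (ZEB1). Of 8 leukocyte markers read, 5 were below the floor on both arrays, PTPRC, TYROBP, LYZ, CD3E and CD14. The 3 measured were CD79A (315 and 201.8, log2 ratio -0.64), ITGAM (127.1 and 48.4, the second below the floor) and FCER1G (82.9 and 84.3). The summed intensity of the 8 was 634.1 with the empty plasmid and 489.6 with S100A7. Of 10 markers of fibroblasts, endothelium, nerve and muscle, 6 were below the floor on both, with sums of 1278.2 and 1031.8, of which COL1A1, a fibroblast collagen, gave 842.4 and 487.3. Without COL1A1 the sums were 435.8 and 544.4, since PDGFRB, PECAM1 and CDH5, the other measured markers of that list, were higher on the S100A7 array. The part of these markers in the values of the members was not tested.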

How the data were processed

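The deposited table holds linear intensities, 1 for each probe set, which the authors computed with MAS5 per the submitters' processing notes. Its version, scaling target and detection calls are not stated there. MAS5 intensities that are already scaled, at a trimmed mean (2% off each end) of 500.1 on both arrays, were used as deposited. Growth and extraction were alike for both samples per the labels' protocols, though confluence at harvest is labelled for the vector cells only. A line about embryos in the label of the S100A7 sample was disregarded.

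Probe sets were named through the platform annotation; 41091 list 1 gene, 1801 several, 11721 none, and 62 are controls. Current symbols (GRCh38.p14) were found through the Entrez number for 41037 of the first kind. Values under an array's 50th percentile were raised to it, and a fold with 1 side there is a lower bound. Promoter windows are RefSeq's, and the kappa B motif was matched letter by letter. The analysis used Python 3.11.15 with pandas 2.3.3 and NumPy 2.4.6, and the counting was tested on simulated arrays. The precision is limited by the number of arrays, 1 per group.

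The members, the 5 pathway lists and the 1.5-fold threshold were chosen with earlier results of these data known. All members are named, and from each list up to 3 genes at least 1.5-fold higher and 3 lower, by size; other genes were chosen after their values were seen. Alternatives were median centring, quantile normalization, no floor, a floor at the 30th or the 70th percentile, log2(value + 32), the median over probe sets, no suffixed probe sets, a 2-fold threshold and subtraction of chromosomal neighbours, 20 genes on each side. Listed genes without a probe set naming them alone, such as BIRC3 and RIPK1, were not analysed here.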

Additional observations from a re-analysis of the deposited data

How the results depend on the processing

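The count of members at least 1.5-fold higher was 4 as reported and 3 with the median over probe sets. It was 1 with chromosomal neighbours subtracted, 0 without shared suffixes and 0 at 2-fold in place of 1.5-fold. The shares of all genes were 8.12% as reported and 7.44% with the median over probe sets. They were 7.54% with neighbours subtracted, 9.33% without shared suffixes and 1.80% at 2-fold. With so few members, counts of 1 and 0 lie close to these shares. With median centring 1 member, TNFAIP3, passed 2-fold (log2 ratio 1.03). The median log2 ratio of the members was -0.023 without shared suffixes, where 6 members were read. Across all measured genes, floors set the counts: at least 1.5-fold higher were 2018 genes with a floor at the 30th percentile, 538 at the 70th and 3412 with no floor, and at least 1.5-fold lower were 2568, 619 and 4066. Members were less affected, since all lay above the floor, and the floor settings could not change their log2 ratios. Of 78 recalculated log2 ratios of single members, those settings included, 76 moved by less than 0.36. The exceptions were NFKB2 without shared suffixes (0.45) and TNFAIP3 with neighbours subtracted (0.58). RELA, NFKBIA and TNFAIP3 were not read without shared suffixes and are missing from the 78 there, so the tally says little about stability. Including BCL3 by its brightest probe set, chosen after seeing the data, left 4 of 10 members at least 1.5-fold higher. The median log2 ratio of the members was then 0.27, in place of 0.53. No paired analysis was possible because each group has 1 array. Signal over background limits what can be said of the 3 member probe sets below the floor on both arrays.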
